A study of Mus musculus with 4 samples.

Results

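Genes of the neurotransmitter receptors were examined in cultured mouse germline stem cells with and without forced expression of Nanos2. The members were chosen by name alone: every non-control probe whose gene name began with Gria, Grid, Grik, Grin, Grm, Gabr, Glra, Glrb, Chrn, Chrm, Htr or Drd and ran on with at least 1 more letter or digit. This took 94 gene names with 162 probes, out of 41174 different probes and 27371 features (genes, or file names where no gene was matched) on the array. Of the 94 names, 88 belong to receptor genes and 6 to other proteins that share a name start: the HtrA serine proteases Htra1, Htra2, Htra3 and Htra4, the NMDA receptor-associated protein Grina, and Grid2ip, a scaffold protein. These 6 are counted apart below. Glrb itself and the GABA-B genes Gabbr1 and Gabbr2 fall outside the name rule and are described with the related genes.

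The study asked which mRNAs depend on Nanos2, an RNA-binding protein needed to maintain the stem cells of the male germ line, by switching it on in germline stem cells (GSCs), the cultured form of those stem cells. Both groups carried the same genotype, written Roa-CreERT2;CAG-CAT-3FlagNanos2-pA in the labels (the growth protocol has Rose-CRE-ERT2): a Cre recombinase activated by tamoxifen, and a Flag-tagged Nanos2 construct under CAG, a promoter active in most cell types. Control cells took DMSO, the solvent, for 48 hours (2 arrays). The other group took tamoxifen, named in the growth protocol as 4-hydroxytamoxifen, for 48 hours (2 arrays). Both groups were of male testis origin and grew with the growth factors GDNF (20 ng/ml), EGF (also 20 ng/ml) and FGF2 (10 ng/ml) on mitomycin-C-treated fibroblasts from C57Bl6 embryos of day 13.5, and these feeders were removed before RNA extraction. No group took the compound without the construct, so Nanos2, the compound and the recombinase cannot be told apart. The labels give no age of the cells and do not say how many lines or cultures were used.

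Ionotropic receptors are ion channels assembled from several subunits, which open when glutamate, GABA, glycine, acetylcholine or serotonin binds. Metabotropic receptors signal through G proteins. Both kinds are best known from synapses, the muscle-type nicotinic receptor from the neuromuscular junction, and several subunits have also been described in non-neuronal cells, those of the testis included.

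All values come from 1-colour Agilent arrays with probes of 60 bases, on which a signal is a background-subtracted intensity in arbitrary units. The 4 arrays shared 1 slide and 1 scan time, between 62.1% and 65.9% of spots lay well above background, no spot was saturated (0 on each array), and the lowest signal well above background was between 15.01 and 19.5. The 75th percentile of the signals lay between 706.1 and 745.9. Nanos2, the targeted gene, read 352.8 and 351.7 with DMSO and 903.8 and 1070 with 4-hydroxytamoxifen, a rise of 2.93-fold (limma adjusted p = 0.000860), and was higher on both arrays of the group labelled as induced. Its probe lies at chr7:19573771-19573830 of mm9, and whether it reads the construct as well as the endogenous gene was not tested. The germ cell markers Ddx4 and Dazl were well above background on every array. Ddx4 read 23793 and 22119 with DMSO and 18716 and 20047 with 4-hydroxytamoxifen and did not pass (-0.17), while Dazl fell from 21753 and 22427 to 7776 and 8075 (-1.41, limma adjusted p = 0.000503). A gene was called when its adjusted p, from limma over all 17537 features that passed the filter, was under 0.05. Differences are log2, 4-hydroxytamoxifen minus DMSO, ± the standard error of the fit, with 2 arrays per group.

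The array reads each gene at a single short stretch or a few of them, so some of the probes behind the receptor differences below are shown first. Each line holds the 30 bases at the 5′ end of a probe, as deposited, for a few called members picked by hand. Other called members with several detected probes, Chrna1 and Gabrb2 among them, are not shown. No base is in capitals, since no part of a probe was singled out. Positions are those of the whole probe on mm9, with its strand. Whether a probe lies in coding sequence or in a UTR was not assessed here.
Grm5 (chr7:95280099-95280158, plus strand): aaccaagaaaaccagtgcaagatttctgga
Grm5, other probe (chr7:94751530-94751589, plus strand): cttgctccagcttttcaacatacctcagat
Grin2c (chr11:115110671-115110730, minus strand): ccttagcagcttaggtcttggtgtgggctg
Grik5 (chr7:25794943-25795002, minus strand): ttctctcttttttggggggagaaacctcag
Gria3 (chrX:38965889-38965948, plus strand): tcctggtttctgtaagtcaactttcaaaac
Gria3, other probe (chrX:39007367-39007426, plus strand): aagttggtggaaatctggattccaaaggct
Gria3, a further probe (chrX:39031099-39031158, plus strand): gcgcatatttgctctcgtctttagaaaaga
Chrna4 (chr2:180757309-180757368, minus strand): gttagggcagaatgcttgatttaagacttt
Chrna4, other probe (chr2:180759428-180759487, minus strand): tgcctccatggttggctggtatgatctagg

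Fewer of the receptor genes were detected than of genes at large. For 40 of the 88 receptor genes (45.5%), a probe exceeded background clearly on 2 or more of the 4 arrays, against 15136 of 19987 genes matched to RefSeq (75.7%). On all 4 arrays, 26 receptor genes (29.5%) were above background, against 70% of genes matched to RefSeq. Array by array, 33 and 33 receptor genes (37.5% on each) were above background with DMSO and 40 and 35 (45.5% and 39.8%) with 4-hydroxytamoxifen. Of genes matched to RefSeq, the shares were 73.1% and 72.9% with DMSO and 76.9% and 74.3% with 4-hydroxytamoxifen, also highest on 4-hydroxytamoxifen replicate 1. The share of detected genes differed between families. It was highest for the NMDA subunits (6 of 7) and the nicotinic subunits (11 of 16). AMPA subunits (2 of 4), metabotropic glutamate receptors (4 of 8), serotonin receptors (6 of 14), dopamine receptors (2 of 5), kainate subunits (2 of 5), GABA-A subunits (6 of 18) and muscarinic receptors (1 of 5) followed. The delta receptors (0 of 2), Grid1 among them, and the glycine alpha subunits Glra1, Glra2, Glra3 and Glra4 (0 of 4) were not detected. No test was made between families, whose genes differ in the number of probes on the array.

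**Figure D1:**
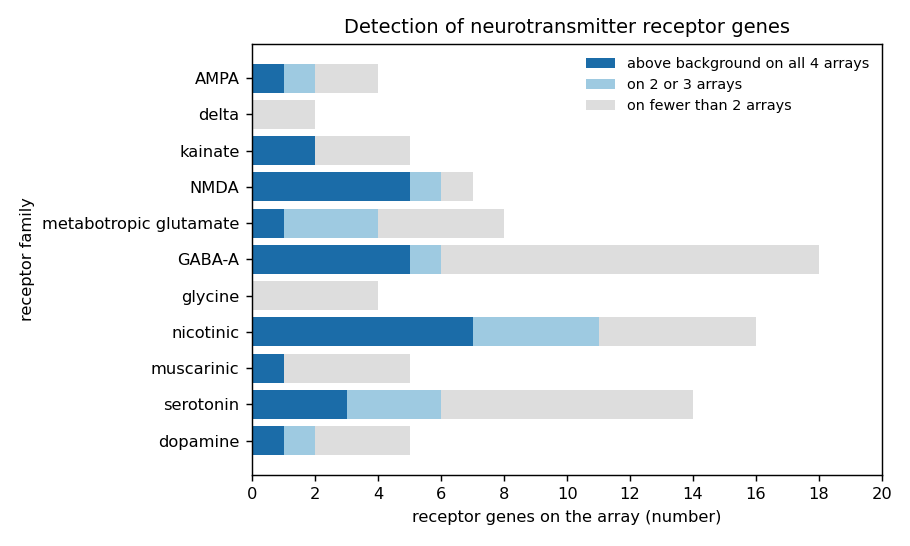
Number of receptor genes on the array in each family (horizontal axis), split by the number of arrays on which a probe of the gene lay well above background. Dark bars are genes above background on all 4 arrays, light bars those on 2 or 3 arrays, and grey bars those on fewer than 2. NMDA and nicotinic families have the longest coloured share, and the delta and glycine families are wholly grey.

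Of the 40 detected receptor genes, 19 were called higher after 4-hydroxytamoxifen (47.5%, against 40.3% of all features), 5 lower (12.5%, against 29.3%) and 16 in neither direction. Called in either direction were thus 60% of the receptor genes and 69.5% of all features (63.1% with the replicate number as a block, where 21 receptor genes were higher and 6 lower). The median difference was 0.59, and 0.44 with the 8 one-sided genes at their bounds, against 0.11 over all features. These counts are a description only. The filter let in 6 genes (among them Grm5, Chrna9, Chrna10, Chrng and Chrnb4) through the 4-hydroxytamoxifen arrays alone. It let in 2 (Grin2a and Htr1d) through the DMSO arrays alone. Such genes had to differ, so calls of them add no support beyond the filter. Among the 26 receptor genes above background on all 4 arrays, 12 were higher (46.2%, against 39.6% of features with that property) and 4 lower (15.4%, against 30.4%), with a median of 0.36 against 0.09. Of these 26 genes, whose differences were measured on both sides, 6 were higher by at least 2-fold (23.1%, against 13.7% of features with that property) and 2 lower (7.69%, against 7.89%). The split moved with the scaling: 19 higher and 5 lower in the main setting became 18 and 9 with centring on the array median, 18 and 11 with quantile normalization, and 20 and 8 with scaling on the spike-in probes. All features were 40.3% higher and 29.3% lower in the main setting, 32.7% and 38% with median centring, and 27.6% and 27.7% with spike-in scaling. No such share was taken for quantile normalization, so its counts cannot be set against all features. The groups' arrays did not overlap for 31 receptor genes (77.5%, against 86.5%).

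**Figure D2:**
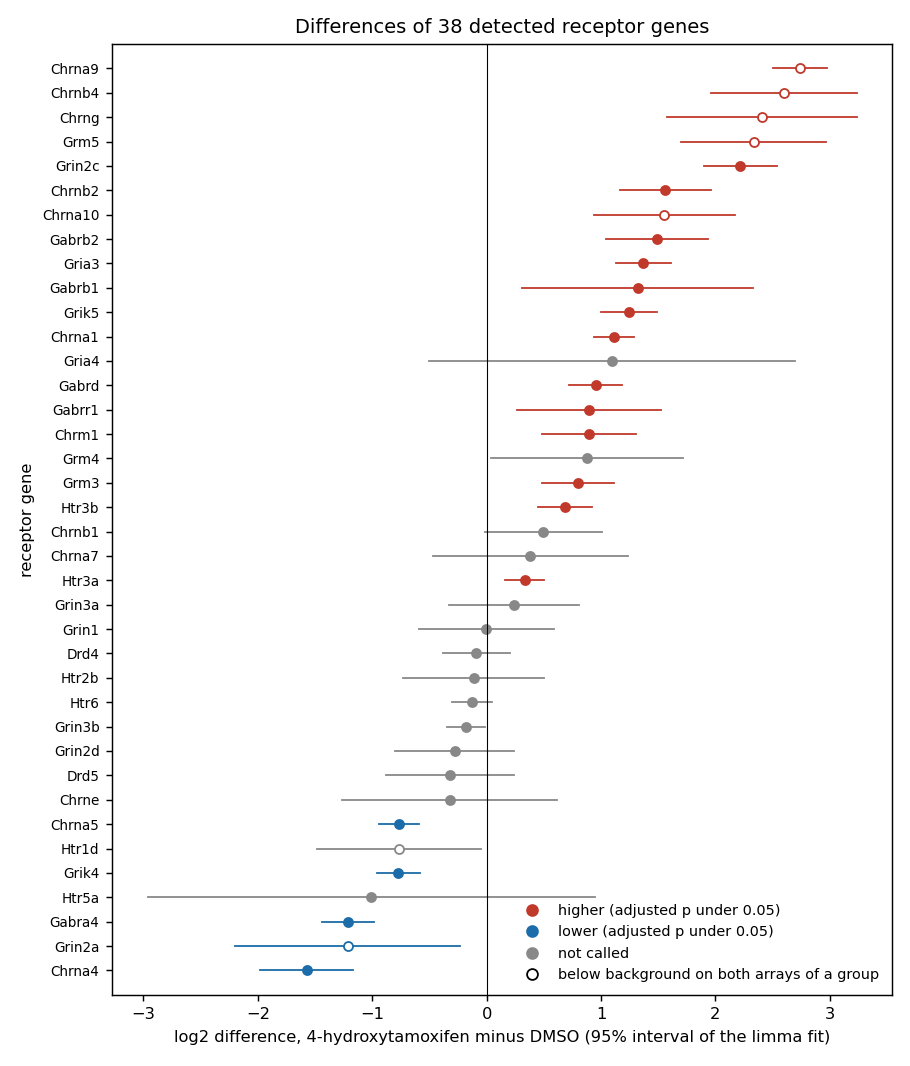
Log2 difference (4-hydroxytamoxifen minus DMSO, horizontal axis) of each of 38 detected receptor genes with its 95% interval from the limma fit. Red points were called higher, blue lower and grey not called, and open points are genes below background on both arrays of a group, whose value is no measured fold. Points run from Chrna9 at 2.74 down to Chrna4 at -1.57, with 18 red and 5 blue.

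Glutamate is the main excitatory transmitter of the brain, and of its 26 receptor genes on the array 14 were detected. Among AMPA subunits, which form the fast glutamate channel, Gria3 read 282.9 and 307.4 with DMSO and 762.7 and 691.2 with 4-hydroxytamoxifen. Both 4-hydroxytamoxifen arrays lay above both DMSO arrays. Gria3 thus rose by 1.37 ± 0.09, or 2.59-fold (limma adjusted p = 0.000790). The other Gria3 probes, shown above, gave 1.35 ± 0.29 and 1.78 ± 0.16, in the same direction. Gria4 read 18.4 and 5.94 with DMSO and 22.3 and 20.3 with 4-hydroxytamoxifen, above background on 1 array of each group, and its difference of 1.09 ± 0.58 did not pass (limma adjusted p = 0.163). It passed without DMSO replicate 1 (1.92, adjusted p = 0.000885) and under spike-in scaling (0.94). The other Gria4 probes did not pass the filter. Gria1 and Gria2, the other AMPA subunits, were not detected.

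Kainate receptors are glutamate channels built from low-affinity subunits (Grik1 to Grik3) and high-affinity subunits (Grik4 and Grik5) that need a low-affinity partner to form a working channel. Only the high-affinity pair was detected, and its members moved in opposite directions. Grik5 read 496.5 and 568.4 with DMSO and 1179 and 1220 with 4-hydroxytamoxifen. It rose by 1.25 ± 0.09, or 2.37-fold (limma adjusted p = 0.000953). Grik4 read 633.4 and 614.4 with DMSO and 338.2 and 357.8 with 4-hydroxytamoxifen. It fell by 0.77 ± 0.07 on the log2 scale, or 1.71-fold (limma adjusted p = 0.00142). Neither gene's arrays overlapped between groups. Grik1, Grik2 and Grik3 were not detected, and a probe listed under C130030K03Rik that RefSeq assigns to Grik2 was not above background on any array either.

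NMDA receptors combine the obligate Grin1 subunit with Grin2 or Grin3 subunits, and 6 of these 7 genes were detected. Grin2c, a subunit known from the cerebellum, read 33.9 and 28.2 with DMSO and 134.5 and 139.1 with 4-hydroxytamoxifen. All 4 arrays were above background and the groups lay far apart. Grin2c rose by 2.22 ± 0.12, or 4.65-fold (limma adjusted p = 0.000611). The other subunits did not follow it. Grin1 read 23.8 and 34.5 with DMSO and 29.9 and 24.8 with 4-hydroxytamoxifen, so the groups overlapped, and its difference of 0.00 ± 0.21 did not pass (95% interval -0.59 to 0.59). Grin2d read 301.8 and 217.4 with DMSO and 190.4 and 212.6 with 4-hydroxytamoxifen, a difference of -0.28 ± 0.19 that did not pass. Grin3b (-0.18) and Grin3a (0.24) did not pass either. Grin2d passed without DMSO replicate 2 (-0.52, adjusted p = 0.0178), Grin3a without DMSO replicate 1 (0.48, adjusted p = 0.0480), and Grin3b with quantile normalization (-0.30), median centring (-0.36) and the filter on all 4 arrays (adjusted p = 0.0491).

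Grin2a was the NMDA subunit called lower. It read 19.2 and 20.7 with DMSO and 11.6 and 5.78 with 4-hydroxytamoxifen, where it was not well above background on either array. The measured bound is at least 1.11-fold lower, with a fitted value of -1.22 ± 0.36. This call was lost without DMSO replicate 1 (adjusted p = 0.0578) or 2 (adjusted p = 0.0694), with normexp background correction (-0.15) and with no filter on dim probes (adjusted p = 0.0973), and without 4-hydroxytamoxifen replicate 2 the value was -0.71. The other Grin2a probe was not above background on any array, and Grin2b was not detected.

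Metabotropic glutamate receptors signal through G proteins, and 4 of their 8 genes were detected. Grm5, which couples to calcium release, read 8.59 and 13.1 with DMSO, below background, and 47.4 and 54.8 with 4-hydroxytamoxifen. It was at least 3.11-fold higher, and it was seen with 4-hydroxytamoxifen alone. The other detected Grm5 probe, shown above, read 4.22 and 4.98 with DMSO, also below background, and 23.2 and 24.1 with 4-hydroxytamoxifen. That probe was at least 1.45-fold higher, with a fitted value of 2.44 beside 2.33. Both probes passed the filter through the 4-hydroxytamoxifen arrays alone, so their shared direction was fixed and adds no support. Of the Grm5 probes that did not pass, one was below background on all arrays, and another read 50.2 and 5.36 on the 4-hydroxytamoxifen arrays, so the 4 probes of this gene did not give 1 picture.

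Grm3 and Grm4 couple to inhibitory G proteins. Grm3 read 21.5 and 23.2 with DMSO and 33.7 and 40.7 with 4-hydroxytamoxifen, and rose by 0.80 ± 0.12 (limma adjusted p = 0.00489). Grm4 read 14.9 and 25.003 with DMSO and 29.0 and 39.4 with 4-hydroxytamoxifen. Its difference of 0.88 ± 0.30 did not pass (limma adjusted p = 0.0613). It passed with normexp correction (0.36), spike-in scaling (0.73) and the replicate block (adjusted p = 0.00686), and without DMSO replicate 2 (1.24, adjusted p = 0.00709). Grm2, Grm6, Grm7 and Grm8 were not detected.

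GABA-A receptors are chloride channels, usually of alpha, beta and gamma or delta subunits, and mediate fast inhibition. In these cells beta subunits and single members of other classes were detected, while the gamma subunits Gabrg1 and Gabrg3 were not. Gabrb2 read 27.0 and 36.8 with DMSO and 85.1 and 83.6 with 4-hydroxytamoxifen, and rose by 1.49 ± 0.16, or 2.81-fold (limma adjusted p = 0.00228). Another Gabrb2 probe had a fitted value of 2.86, with 14.1 and 17.99, below background with DMSO and 118.1 and 102.9 with 4-hydroxytamoxifen, and the remaining probes of this gene were not above background on any array.

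Gabrb1 read 13.8 and 28.5 with DMSO, above background on 1 of these arrays, and 47.4 and 47.1 with 4-hydroxytamoxifen. The groups did not overlap, but the DMSO arrays lay far from each other. Its rise of 1.32 ± 0.37 (limma adjusted p = 0.0335) was lost without 4-hydroxytamoxifen replicate 1 (adjusted p = 0.129) or 2 (adjusted p = 0.126) and with no filter on dim probes (adjusted p = 0.0862), and was 0.80 without DMSO replicate 1.

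Gabra4 was the single alpha subunit detected and the single GABA-A gene called lower. It read 82.1 and 77.9 with DMSO and 34.5 and 31.4 with 4-hydroxytamoxifen, and fell by 1.21 ± 0.08 on the log2 scale, or 2.32-fold (limma adjusted p = 0.000899). Gabrd, whose product replaces the gamma subunit in extrasynaptic receptors, read 59.1 and 58.8 with DMSO and 102.2 and 115.6 with 4-hydroxytamoxifen. It rose by 0.95 ± 0.09 (limma adjusted p = 0.00145). Gabrr1, the rho subunit of retinal GABA receptors, read 72.3 and 62.6 with DMSO and 146.1 and 97.2 with 4-hydroxytamoxifen, so its treated arrays lay apart from each other. Its rise of 0.90 ± 0.23 (limma adjusted p = 0.0263) was lost without DMSO replicate 2 (adjusted p = 0.0556) and with no filter on dim probes (adjusted p = 0.0732). Not detected were Gabra2, Gabra3, Gabra5, Gabra6, Gabre, Gabrp, Gabrq and Gabrr2. Gabra2 and Gabrp were above background on 1 array each.

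Nicotinic receptors are acetylcholine-gated cation channels of a muscle type and several neuronal types, and 11 of their 16 genes were detected. Of these, 6 were higher (54.5%, against 40.3% of all features), 2 lower (18.2%, against 29.3%) and 3 in neither direction, and 4 of the 6 passed the filter through the 4-hydroxytamoxifen arrays alone. Among muscle-type subunits, Chrna1, which carries the acetylcholine site, read 171.4 and 181.1 with DMSO and 363.6 and 362.0 with 4-hydroxytamoxifen. The groups lay far apart and the arrays within a group close together. Chrna1 rose by 1.11 ± 0.06, or 2.16-fold (limma adjusted p = 0.000702). Its other probe read 18.1 and 15.6 with DMSO, below background, and 49.0 and 30.2 with 4-hydroxytamoxifen. That probe was at least 2.21-fold higher (fitted value 1.26 ± 0.26). It passed the filter through the 4-hydroxytamoxifen arrays alone, so its direction was fixed and it adds no support. Chrng, the fetal subunit, read 3.44 and 6.23 with DMSO, below background, and 23.6 and 23.2 with 4-hydroxytamoxifen. It was called, at least 1.43-fold higher. The call was lost with no filter on dim probes, where another probe of the gene stood for it (0.24, limma adjusted p = 0.670).

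The other muscle-type subunits did not pass. Chrne, which replaces Chrng in adult muscle, read 142.6 and 94.8 with DMSO and 68.2 and 114.7 with 4-hydroxytamoxifen, and its groups overlapped. Chrnb1 read 41.7 and 34.1 with DMSO and 58.2 and 44.1 with 4-hydroxytamoxifen (0.50 ± 0.19, limma adjusted p = 0.0751). Chrnb1 passed without DMSO replicate 1 (0.65, adjusted p = 0.0426) or 4-hydroxytamoxifen replicate 2 (0.70, adjusted p = 0.0497), with the replicate block (adjusted p = 0.0155) and with the filter on all 4 arrays (adjusted p = 0.0493). Chrnd was not detected. Of 9 detected muscle markers of 11, 7 were higher (77.8%, against 40.3% of all features) and 1 lower (11.1%, against 29.3%), with summed signals, in units of each array's 75th percentile, of 4.51 and 4.52 with DMSO and 7.34 and 8.28 with 4-hydroxytamoxifen. Of these 9 markers, 1 passed the filter through the 4-hydroxytamoxifen arrays alone, so its direction was fixed. The median difference of the 9 was 0.94, and 0.72 with that gene at its bound. Myod1 and Myl1 were not detected. The part of the muscle markers in the result was not tested.

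Chrna9 and Chrna10, which together form the acetylcholine receptor of cochlear hair cells, were both above background with 4-hydroxytamoxifen alone. Chrna9 read 3.77 and 4.199 with DMSO and 26.2 and 24.3 with 4-hydroxytamoxifen, at least 1.54-fold higher. Chrna10 read 14.6 and 9.60 with DMSO and 32.9 and 33.3 with 4-hydroxytamoxifen, at least 2.02-fold higher. Both genes lay close to the background on the treated arrays, so only these bounds are measured. Another Chrna9 probe read 9.12 and 6.98 with DMSO and 19.6 and 18.2 with 4-hydroxytamoxifen. That probe was above background on 1 array and did not pass the filter.

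Neuronal-type subunits went both ways. Chrna4, which with Chrnb2 forms the most abundant high-affinity nicotine site of the brain, read 565.8 and 597.9 with DMSO and 162.6 and 212.8 with 4-hydroxytamoxifen. It fell by 1.57 ± 0.15 on the log2 scale, or 2.98-fold (limma adjusted p = 0.00163), and the other probe shown above gave -1.39 ± 0.09. Chrnb2 read 37.6 and 31.8 with DMSO and 88.2 and 107.01 with 4-hydroxytamoxifen. It rose by 1.56 ± 0.14, or 2.95-fold (limma adjusted p = 0.00154). The genes of this pair thus moved in opposite directions. Chrna5, an accessory subunit, read 58.7 and 58.4 with DMSO and 32.0 and 33.7 with 4-hydroxytamoxifen, and fell by 0.77 ± 0.06 (log2; limma adjusted p = 0.00130). Chrnb4, the beta subunit of autonomic ganglia, read 3.27 and 3.75 with DMSO, below background, and 16.3 and 25.02 with 4-hydroxytamoxifen. It was at least 1.24-fold higher. Chrna7 read 18.003 and 31.9 with DMSO and 33.1 and 26.7 with 4-hydroxytamoxifen, with overlapping groups, and passed only without DMSO replicate 2 (0.79, adjusted p = 0.0134). Chrna2, Chrna3, Chrna6 and Chrnb3 were not detected.

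**Figure D3:**
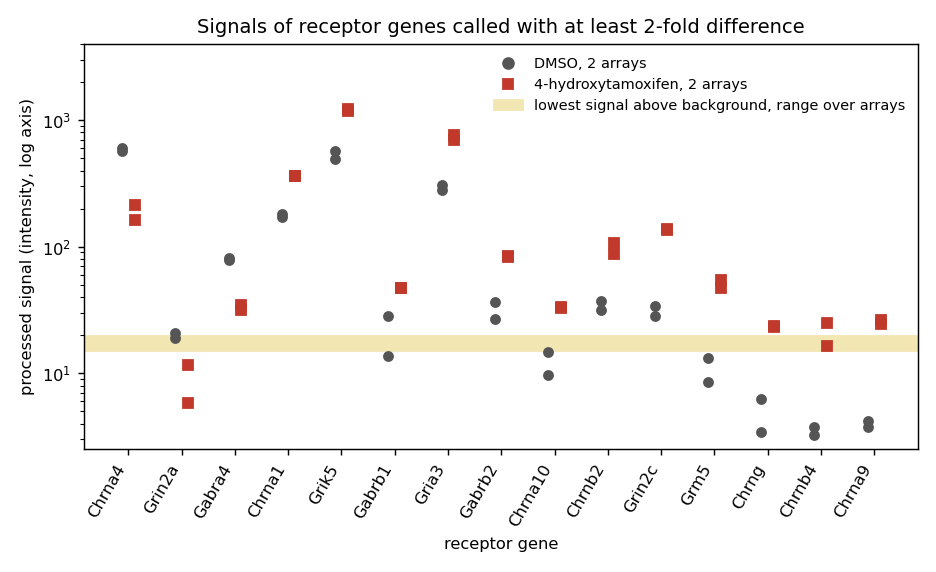
Processed signal (intensity, log axis) on each array for 15 receptor genes called with a fitted difference of at least 2-fold, ordered by that difference, which is no measured fold for genes below background in a group. Circles are the 2 DMSO arrays, squares the 2 4-hydroxytamoxifen arrays, and the band spans the lowest signals well above background on the 4 arrays, 15.01 to 19.5. Grm5, Chrna9, Chrna10, Chrng and Chrnb4 start below or within the band with DMSO, while Chrna4, Grin2a and Gabra4 lie lower with 4-hydroxytamoxifen.

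Muscarinic receptors are the G protein-coupled receptors for acetylcholine. Chrm1 was the only one detected, with 48.1 and 63.2 with DMSO and 100.7 and 94.4 with 4-hydroxytamoxifen, and rose by 0.89 ± 0.15 (limma adjusted p = 0.00753). The call was lost without 4-hydroxytamoxifen replicate 1 (0.84, adjusted p = 0.0505). The other Chrm1 probe was not above background on any array. Chrm2, Chrm3, Chrm4 and Chrm5 were not detected.

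Serotonin receptors are G protein-coupled except for the Htr3 channel. Both channel subunits were detected on all arrays. Htr3b read 60.1 and 66.8 with DMSO and 93.3 and 100.9 with 4-hydroxytamoxifen, and rose by 0.68 ± 0.09 (limma adjusted p = 0.00327). Htr3a, the subunit required for a working channel, read 25.9 and 26.4 with DMSO and 31.7 and 31.0 with 4-hydroxytamoxifen. Its difference of 0.33 ± 0.06 passed (limma adjusted p = 0.00984) but was lost with normexp background correction (0.13), quantile normalization (0.11), median centring (0.15) and spike-in scaling (0.18), and without 4-hydroxytamoxifen replicate 1 (adjusted p = 0.0545).

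None of the detected G protein-coupled serotonin receptors passed in the main setting. Htr1d read 35.7 and 22.1 with DMSO and 14.8 and 16.8 with 4-hydroxytamoxifen, where it was below background, a fitted value of -0.77 ± 0.26 (limma adjusted p = 0.0581). Htr1d passed as lower with quantile normalization (-1.01), median centring (-0.95) and spike-in scaling (-0.92), and without DMSO replicate 1 (-0.42, adjusted p = 0.0412) or 2 (-1.12, adjusted p = 0.00224). Htr6 read 34.4 and 34.9 with DMSO and 30.9 and 29.6 with 4-hydroxytamoxifen (-0.13 ± 0.06), and passed as lower with quantile normalization (-0.34) and median centring (-0.31). Htr5a had 39.3 and 22.8 with DMSO and 26.9 and 7.45 with 4-hydroxytamoxifen, and Htr2b 20.2 and 29.8 against 23.9 and 19.6, so both overlapped between groups. Htr5a (-1.01 ± 0.71) passed as lower with spike-in scaling (-1.16), without 4-hydroxytamoxifen replicate 1 (-1.94, adjusted p = 0.0379) and with the replicate block (adjusted p = 0.0451). Htr1a, Htr1b, Htr1f, Htr2a, Htr2c, Htr4, Htr5b and Htr7 were not detected.

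Dopamine receptors couple to G proteins that raise (Drd1 and Drd5) or lower (Drd2 to Drd4) cyclic AMP. Drd4 read 30.4 and 33.1 with DMSO and 26.3 and 30.7 with 4-hydroxytamoxifen (-0.09 ± 0.11). Drd5 read 21.2 and 27.2 with DMSO and 21.3 and 15.8 with 4-hydroxytamoxifen, above background on 1 of the latter (-0.32 ± 0.20). Neither passed, and the groups overlapped for both. With quantile normalization both passed as lower (Drd4 -0.31, Drd5 -0.56). Drd2, Drd3 and Drd1a, the file's older name for Drd1, were not detected.

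The dim receptor genes depended on the background correction for the size of their difference. With normexp correction (offset 50) in place of the deposited background-subtracted signal, Grm5 was at 0.65, Grin2c at 0.999, Chrna9 at 0.61, Chrnb4 at 0.48, Chrnb2 at 0.80 and Gabra4 at -0.47, all still called in the same direction. For Grm5, Chrna9 and Chrnb4 the filter had fixed that direction. Grin2a and Htr3a lost their calls with this correction. Of the 24 called receptor genes, 18 kept their call and direction under each of the 14 alternatives that could be fitted for them, and 0 changed sign. The matching share over all features was not taken.

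The genes that share only the start of their names were detected for 5 of 6, with 3 higher (60%, against 40.3% of all features) and 1 lower (20%, against 29.3%). Htra1, a secreted serine protease, read 11896 and 12137 with DMSO and 25149 and 23617 with 4-hydroxytamoxifen, and rose by 1.09 ± 0.07 (limma adjusted p = 0.000780). Grina, a membrane protein of the TMBIM family, read 2375 and 2451 with DMSO and 5114 and 5566 with 4-hydroxytamoxifen, and rose by 1.22 ± 0.07 (limma adjusted p = 0.000753). Htra4 read 8.91 and 13.8 with DMSO, below background, and 24.0 and 26.4 with 4-hydroxytamoxifen. It was called, at least 1.54-fold higher, and the call was lost without 4-hydroxytamoxifen replicate 2. Htra3 fell by 0.55 ± 0.07 (log2; limma adjusted p = 0.00295), from 174.4 and 168.3 to 113.3 and 109.0. Its other detected probe gave -0.18 ± 0.24, and the mean of both no longer passed (adjusted p = 0.0705). Htra2, a mitochondrial protease, was at 0.18 and did not pass, and Grid2ip was not detected.

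Receptor subunit genes often lie side by side in the genome, and 28 of the 88 receptor genes had a probe within 1 Mb of another on mm9, in 10 clusters. In 4 of these clusters at least 2 genes were detected, and in 2 of them called genes moved in opposite directions. How often neighbouring genes at large are called in opposite directions was not assessed. On chromosome 9, Chrna5 fell, and Chrna3, 6.27 kb further along, was not detected. Chrnb4, a further 23.2 kb along, was higher and seen with 4-hydroxytamoxifen alone, so the filter fixed its direction. On chromosome 5, Gabra4 fell while Gabrb1, whose probe lies 565 kb away, rose, and Gabrg1 and Gabra2 beside them were not detected. The Gabrb1 call was lost without either 4-hydroxytamoxifen array and with no filter on dim probes. In the remaining clusters with 2 detected genes, Htr3a and Htr3b, 36.2 kb apart, were both higher, and Chrnb1 and Chrne did not pass. Gabrb2 was higher beside undetected Gabra6, Chrng beside undetected Chrnd, and Gabrr1 beside undetected Gabrr2.

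**Figure D4:**
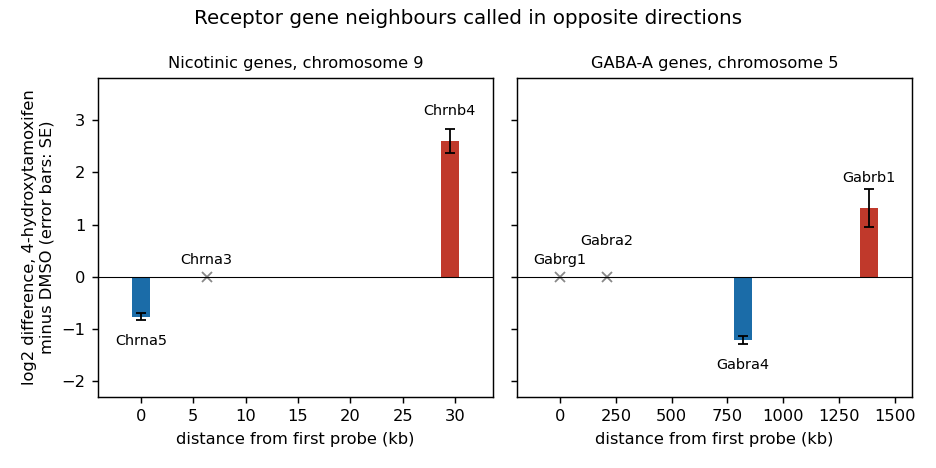
Log2 difference with its standard error (vertical axis, 4-hydroxytamoxifen minus DMSO, 2 arrays per group) against the distance of each probe from the first probe of the cluster in kb. Bars are called genes, and grey crosses at 0 mark genes that were not detected and have no value. In each panel a blue bar (Chrna5 at -0.77, Gabra4 at -1.21) stands beside a red bar (Chrnb4 at 2.60, a fitted value since DMSO was below background, and Gabrb1 at 1.32). The Gabrb1 call was lost without either 4-hydroxytamoxifen array.

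The 250 bases before the start sites of these called neighbours are shown so that the opposite movers can be set side by side. They are RefSeq sequence on GRCm38, 5′ to 3′ on the gene's strand, with each CG in capitals, a letter pair that reads the same on both strands. RefSeq gives Gabrb1 and Chrna5 a second start each. The Gabra4 start and the nearer Gabrb1 start lie 387 bases apart on opposite strands, and transcripts from them run across each other's first bases.
Gabra4 (chr5:71658309-71658558, minus strand): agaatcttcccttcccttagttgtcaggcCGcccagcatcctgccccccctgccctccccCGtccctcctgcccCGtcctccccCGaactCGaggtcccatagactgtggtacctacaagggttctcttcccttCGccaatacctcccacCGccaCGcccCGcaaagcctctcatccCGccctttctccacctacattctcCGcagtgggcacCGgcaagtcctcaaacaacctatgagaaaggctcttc
Gabrb1 (chr5:71657671-71657920, plus strand): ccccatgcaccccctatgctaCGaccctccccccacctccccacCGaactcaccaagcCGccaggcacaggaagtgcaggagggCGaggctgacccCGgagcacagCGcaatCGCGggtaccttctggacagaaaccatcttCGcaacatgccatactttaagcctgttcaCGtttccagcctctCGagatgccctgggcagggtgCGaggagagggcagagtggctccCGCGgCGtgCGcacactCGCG
Chrna5 (chr9:54981238-54981487, plus strand): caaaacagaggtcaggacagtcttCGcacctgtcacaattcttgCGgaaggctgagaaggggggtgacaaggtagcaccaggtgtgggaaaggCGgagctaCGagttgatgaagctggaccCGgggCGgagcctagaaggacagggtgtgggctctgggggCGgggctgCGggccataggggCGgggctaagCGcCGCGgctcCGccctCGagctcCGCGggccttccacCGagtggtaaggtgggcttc
Chrnb4 (chr9:55048545-55048794, minus strand): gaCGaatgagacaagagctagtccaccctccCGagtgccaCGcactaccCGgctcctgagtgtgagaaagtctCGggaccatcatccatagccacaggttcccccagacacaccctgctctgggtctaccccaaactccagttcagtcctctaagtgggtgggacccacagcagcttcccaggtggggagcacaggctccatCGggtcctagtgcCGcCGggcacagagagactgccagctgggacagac
The windows hold 12 CG for Gabra4, 18 for Gabrb1, 17 for Chrna5 and 8 for Chrnb4. The other starts hold 6 for Gabrb1 (chr5:71699682-71699931) and 3 for Chrna5 (chr9:54980630-54980879). Over all windows of the same length in the RefSeq table the median was 6, with quartiles of 2 and 16. At the starts shown, both falling genes and both rising genes lay above that median, while the other starts of Gabrb1 and Chrna5 did not. Which start these cells use was not assessed, and these counts are a description with no test.

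Related genes were taken from 4 lists of receptors outside the name rule, receptor-handling proteins, enzymes and transporters. Of 27 further receptor genes on the array, 22 passed the filter, 11 were higher (50%, against 40.3% of all features) and 5 lower (22.7%, against 29.3%), with a median of 0.32 against 0.11 over all features. 1 of the 22 passed through the 4-hydroxytamoxifen arrays alone and 2 through the DMSO arrays alone. The ATP-gated channel P2rx7 read 376.3 and 405.5 with DMSO and 1959 and 2243 with 4-hydroxytamoxifen, and rose by 2.49 ± 0.10 (limma adjusted p = 0.000444). The adrenergic receptor genes moved both ways: Adra2c was at least 2.29-fold higher, from below background, and Adrb1 was at least 2.003-fold lower, to below background. Among adenosine receptors, Adora3 was at least 1.23-fold lower, a call lost with normexp correction (adjusted p = 0.0565). Adora1 fell by 0.89 ± 0.09 on the log2 scale, a call lost with the mean of its probes (-0.21, adjusted p = 0.0738). Adora2b rose by 0.55 ± 0.07 (limma adjusted p = 0.00328), a call lost with spike-in scaling (adjusted p = 0.108), and Adora2a (-0.14) did not pass. Glrb, the glycine receptor beta subunit, read 44.0 and 53.2 with DMSO and 101.1 and 93.8 with 4-hydroxytamoxifen, and rose by 1.08 ± 0.12 (limma adjusted p = 0.00214), while no glycine alpha subunit was detected. The GABA-B genes Gabbr1 (-0.13) and Gabbr2 (0.05) did not pass.

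Of 45 genes for receptor assembly, auxiliary and anchoring proteins, 33 passed the filter, 14 were higher (42.4%, against 40.3% of all features) and 10 lower (30.3%, against 29.3%), with a median of 0.19. These shares lie near those of all features. Cacng5, an auxiliary subunit of AMPA receptors, read 27.8 and 30.7 with DMSO and 168.0 and 181.1 with 4-hydroxytamoxifen, and rose by 2.65 ± 0.08 (limma adjusted p = 0.000386). Tmem35a, a chaperone of nicotinic receptors, rose by 1.24 ± 0.12, and Lynx1, a membrane-anchored modulator of nicotinic receptors, by 0.93 ± 0.11. Shank2, a scaffold of excitatory synapses, was at least 1.55-fold lower, to below background. Cnih2, another AMPA receptor auxiliary protein, fell by 0.92 ± 0.06 on the log2 scale, and Lrp4, the agrin receptor of the neuromuscular junction, by 0.91 ± 0.08.

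Of 23 genes of transmitter synthesis and breakdown, 15 passed the filter, 7 were higher (46.7%, against 40.3% of all features) and 4 lower (26.7%, against 29.3%), with a median of 0.08, also near all features. The enzymes of GABA breakdown Aldh5a1 (1.49 ± 0.08) and Abat (1.17 ± 0.09) rose, as did Maob, a monoamine oxidase (1.23 ± 0.07). Glutaminase Gls2 fell by 1.39 ± 0.11 on the log2 scale, and the serine hydroxymethyltransferases Shmt2 and Shmt1 by 1.23 ± 0.11 and 1.13 ± 0.10. The GABA-forming enzymes Gad1 and Gad2, the acetylcholine genes Chat, Ache and Bche, and Th, Dbh and Tph2 were not detected.

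Of 22 transmitter transporter genes, 16 passed the filter, 10 were higher (62.5%, against 40.3% of all features) and 2 lower (12.5%, against 29.3%), with a median of 0.88. Of the 16, 4 passed through the 4-hydroxytamoxifen arrays alone and 1 through the DMSO arrays alone, and these had to differ. Slc32a1, which loads GABA and glycine into vesicles, read 35.6 and 35.9 with DMSO and 314.1 and 378.0 with 4-hydroxytamoxifen, and rose by 3.34 ± 0.11 (limma adjusted p = 0.000386). Slc18a2, the vesicular monoamine transporter, was at least 5.01-fold higher, and Slc1a3, a glutamate uptake carrier, at least 4.51-fold higher, both from below background with DMSO. Slc6a9, the glycine uptake carrier, read 7924 and 7520 with DMSO and 2238 and 2495 with 4-hydroxytamoxifen. It fell by 1.64 ± 0.09 (log2; limma adjusted p = 0.000618). Slc17a7, a vesicular glutamate transporter, was at least 1.71-fold lower, to below background.

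Markers of cell types known to carry these receptors, or present in or around such cultures, were read on the same arrays. The shares of their detected members called are to be read against 40.3% higher and 29.3% lower over all features. In RNA from a whole culture, fewer cells of a type and less RNA per cell cannot be told apart. Of 16 detected neuron markers of 18, 8 were higher (50%) and 2 lower (12.5%), with a median of 0.40, and their summed signal, in units of each array's 75th percentile, was 7.83 and 6.56 with DMSO and 6.84 and 7.68 with 4-hydroxytamoxifen, so the groups overlapped. Of the 16, 1 passed the filter through the 4-hydroxytamoxifen arrays alone, so its direction was fixed. A further 6 of the detected neuron markers were called in neither direction, and Dcx and Dlg4 were not detected. Of 10 glia markers 5 were detected, 2 higher (40%) and 1 lower (20%; median 0.20), with sums of 1.59 and 1.64 against 2.39 and 2.49, and Gfap, Aqp4, Olig1 and Olig2 were not detected. Fibroblast markers, which feeder cells carry, were higher for 18 (94.7%) and lower for 0 of 19 detected of 20 (median 0.94), with sums of 342.1 and 395.5 against 672.2 and 640.2, and Fap was not detected. Macrophage and blood markers were higher for 6 (66.7%) and lower for 0 of 9 detected of 10 (median 1.07), with sums of 16.2 and 18.01 against 35.4 and 36.3. Sertoli and Leydig cell markers were higher for 5 (62.5%) and lower for 2 (25%) of 8 detected of 12 (median 0.93), with sums of 5.44 and 6.04 against 12.3 and 11.7. Germ cell markers were higher for 1 (9.09%) and lower for 6 (54.5%) of 11 (median -0.26), with sums of 335.5 and 338.5 against 246.4 and 254.6. Zbtb16 (also named Plzf) was on that list too, but was not matched on the array by name and is not among the 11. The part of these cell types in the receptor differences was not tested.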

How the data were processed

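Total RNA of 4 samples (2 per group) was read on Agilent array design 014868. The deposited scanner files hold intensity values per spot, background-subtracted with Feature Extraction 10.7.3.1 per the file headers, while the submitters' processing notes name version 9.5. The authors' deposited value table holds log2 values. It equalled the log2 processed signal plus a constant per array (0.290, 0.275, 0.362 and 0.356), with column medians of 6.16, 6.18, 6.35 and 6.35, and served as an alternative.

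From these, the processed signals were put on the log2 scale and the 75th percentile of the array was subtracted, leaving out control and outlier spots. Probes well above background on at least 2 arrays were kept and the probe with the highest mean stood for its gene. The comparison used lmFit and eBayes of limma 3.58.1 under R 4.3.3, with no covariate, and Benjamini-Hochberg adjustment over 17537 features, and the script was tested on simulated data. A gene below background on both arrays of a group has only a bound: the bright group's mean over a dim group's mean in which each array enters with the probe's own signal or, if larger, with that array's lowest signal clearly above background (normalized log2 values). Names were matched to RefSeq (GRCm38) for 33636 of 41174 probes. Coordinates are those of the files (mm9), save the RefSeq upstream windows.

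The labels do not say that replicates came from separate cultures, and p-values then cover the spread of these samples alone, which may be technical. Arrays of a group differed by 1.88 (DMSO) and 2.21 (4-hydroxytamoxifen) times the noise of repeated spots, over 245 probes. Same-numbered arrays did not deviate together (correlation -0.05) and were not taken as pairs. An exact permutation test of 2 against 2 arrays cannot give a two-sided p under 0.333. The number of arrays limits the precision.

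The members and lists were chosen with earlier results of these data known. Values on every array were given for called receptor genes with a log2 difference of at least 1, the gene with the highest signal in each family, those detected in 1 group, and the 10 largest called differences in each direction. In the related lists up to 3 called genes in each direction were named. Other genes with values, among them Glrb, Gabbr1, Gabbr2 and the named markers, were chosen after their values were seen. Alternatives covered background correction, scaling, the filter, the probe rule, the value table, each array left out, and the replicate number as a block. A few genes that these rules name are not reported here, and counts include them.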

Additional observations from a re-analysis of the deposited data

How the results depend on the processing

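The number of receptor genes called lower, 5 in the main setting, was 11 with quantile normalization, 9 with median centring and 8 with spike-in scaling. Of all features, 29.3% were lower in the main setting, 38% with median centring and 27.7% with spike-in scaling. The number called higher, 19, lay between 13 and 22 under the alternatives. Shares over all features were taken only for the main setting, median centring, spike-in scaling and the replicate block. The other counts given here therefore cannot be set against all features. The number detected, 40, was 26 when all 4 arrays had to be above background. Leaving out each array in turn gave 16 to 22 receptor genes higher and 5 to 6 lower, and 39 to 42 and 18 to 19 in the related lists against 42 and 21, with the lone array of a group assumed to vary like the others. With the replicate number as a block, though the numbers do not pair the samples, 21 receptor genes were higher and 6 lower, and 42 and 20 in the related lists. With the mean of all passing probes, 4 genes of the related lists changed sign: Adra2a (0.017), Gabarapl1 (-0.18), Neto2 (-0.10) and Pick1 (0.83). Of 16 receptor genes not called, 13 passed under at least 1 alternative. No such share was taken over all features, so this count cannot be read as a trait of receptor genes. Signals near background limit the dim receptor genes, for which only bounds are measured.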
